A study of Mus musculus with 52 samples.

Results

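The genes described here carry leukaemia inhibitory factor (LIF) signals from the cell surface to STAT3 target genes: Lifr, Il6st, Stat3, Socs3 and Pim1. They were taken by name from 24402 gene intervals of the mouse genome (mm10). Around each transcription start site (TSS), every enhancer region with its centre within 100 kb was collected from the deposited lists. This gave 26 of 16576 regions in the list of epiblast-like cell (EpiLC) enhancers and 13 of 8794 regions in the list of mouse embryonic stem cell (mESC) enhancers. Each region was then split by whether it shared at least 1 bp with a region of the other list.

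LIF binds a receptor made of LIFR and gp130, the product of Il6st, and Janus kinases bound to these chains phosphorylate STAT3. STAT3 dimers enter the nucleus and bind palindromes of the form TTCCNGGAA, at genes that include Socs3, a feedback inhibitor that binds gp130, and Pim1, a kinase that promotes survival. In naive mESCs this pathway sustains self-renewal, while protocols that make EpiLCs, a model of the early post-implantation epiblast, generally leave LIF out.

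The study made 52 libraries from chromatin immunoprecipitation of H3K27me2, H3K27me3, H3K27ac, H3.3, RNA polymerase II and Med1, and from input chromatin, in cells of C57BL6/129Sv background, 9 from EpiLCs harvested after 48 hours of differentiation and 43 from mESCs grown with LIF and inhibitors of GSK3 and MEK1. Clones with mutant H3 lysine 27, either in canonical H3 (cK27R) or in all H3 (pK27R), SUZ12 knockout cells, H3.3 knockout cells and their add-back clones were set against control cells (ABE). The files analysed here hold 0 columns with a value per library, so no genotype is compared and sequencing depth is unknown. They give the regions over which the authors quantified their libraries, taken from earlier publications on each cell type, and a difference between the lists cannot be told apart from a difference in how each list was made. The lists are fixed and have no replicates, so values are given as descriptions, beside the same quantity over all regions or over the 24198 gene intervals that passed the filters, with no test.

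The 5 genes differed widely in how many enhancers surrounded them, with Pim1 highest and Stat3 lowest in both lists at this distance. At 200 kb Stat3 was no longer lowest in the EpiLC list, with 6 EpiLC enhancers, against 3 at Lifr and 5 at Il6st. Pim1 had 14 EpiLC and 5 mESC enhancers. Socs3 had 5 EpiLC and 2 mESC enhancers, and Il6st had 4 and 3. Lifr had 2 of each and Stat3 had 1 of each. The median over the 5 genes was 4 EpiLC and 2 mESC enhancers, against 2 and 1 over all gene intervals. At least 1 EpiLC enhancer lay near 74.2% of all gene intervals and at least 1 mESC enhancer near 55.4%, so having a region of either list was common. The count at Pim1 was the rarest of the 5. As many EpiLC enhancers as Pim1 had were found at 0.0579% of gene intervals, and as many mESC enhancers at 0.475%. The corresponding shares were 16.5% and 23.4% for Socs3, 25.2% and 8.33% for Il6st, 53.4% and 23.4% for Lifr, and 74.2% and 55.4% for Stat3.

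**Figure D1:**
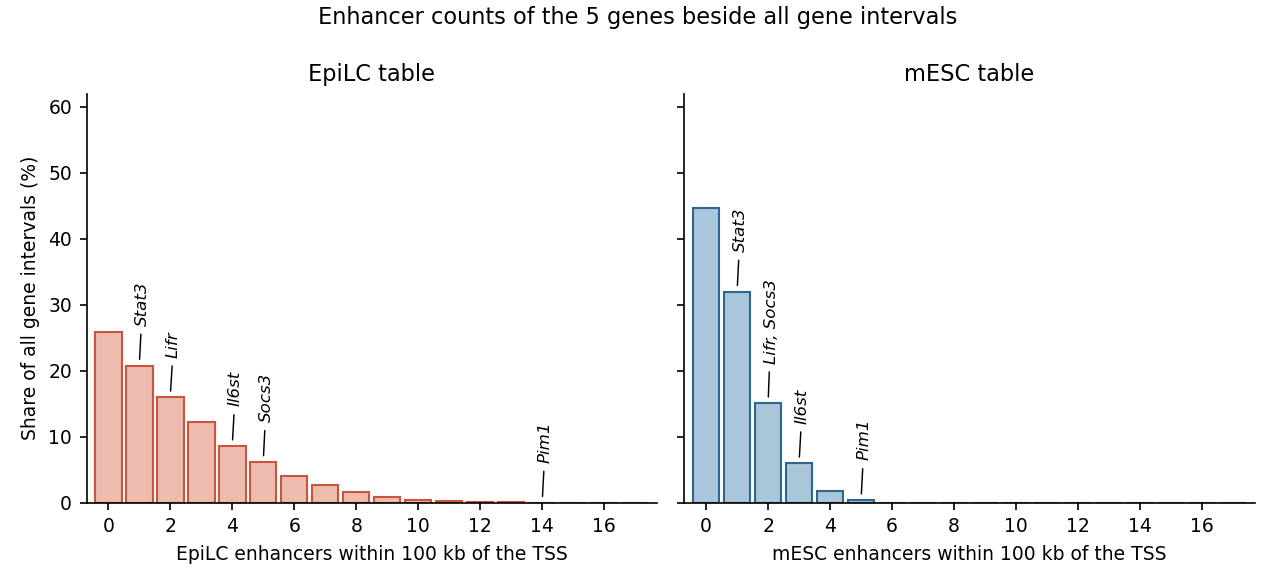
Bars show the share of all 24198 gene intervals (y axis, %) with a given number of EpiLC enhancers (left) or mESC enhancers (right) within 100 kb of the TSS (x axis). Labels mark the 5 genes: Pim1, with 14 EpiLC and 5 mESC enhancers, lies in the far tail of both distributions, and Stat3, with 1 of each, next to the most frequent count of 0.

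Regions near these genes had a higher shared portion than the lists as a whole, and no test of that difference was made. Of the 26 EpiLC enhancers, 13 (50%) overlapped an mESC enhancer, against 25.9% of the whole EpiLC list. In the mESC list 10 of 13 (76.9%) touched an EpiLC region, against 42.9% of that list as a whole, and 7 of these 10 lay wholly inside EpiLC enhancers, a share close to the 67.5% of all overlapping mESC enhancers. Pim1 supplied 6 of the 13 shared EpiLC regions and 4 of the 10 shared mESC regions. Without Pim1 the counts were 7 of 12 EpiLC and 6 of 8 mESC enhancers, both above the shares of the whole lists. Stricter rules gave smaller counts. Of the regions near the genes, 4 EpiLC (15.4%) and 4 mESC enhancers (30.8%) shared at least 50% of both regions, against 4.97% and 9.36% of the whole lists. At an equal width of 500 bp around each centre, 5 EpiLC (19.2%) and 5 mESC enhancers (38.5%) overlapped, against 14.1% and 26.1%. That rule needs centres less than 500 bp apart, so long regions that overlap can still count as unshared. By gene, at least 6 shared EpiLC enhancers, as at Pim1, were found at 0.153% of gene intervals, at least 3, as at Il6st, at 3.89%, at least 2, as at Socs3, at 10.8%, and at least 1, as at Lifr and Stat3, at 31.6%. At least 4 shared mESC enhancers, as at Pim1, were found at 0.393% and at least 1, as at Lifr, Stat3 and Socs3, at 31.6%. These shares by gene hold for the 1 bp rule. At the 500 bp width Pim1 and Socs3 had 0 shared regions in both lists, while Lifr, Il6st and Stat3 kept their counts. Where 50% of both regions had to overlap, Pim1, Socs3, Il6st and Lifr had 1 in each list and Stat3 had 0.

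By GENCODE annotation at the centre, 13 of the 26 EpiLC enhancers were intergenic (36.9% of the whole list), 7 intronic (34.5%) and 6 within 1 kb of an annotated TSS (25.7%). Of the 13 mESC enhancers 7 were intergenic (42.4%), 5 intronic (45.5%) and 1 near a TSS (8.92%). The TSS in the gene list nearest to the centre was that of the gene itself for 19 of 26 EpiLC and 10 of 13 mESC enhancers.

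**Figure D2:**
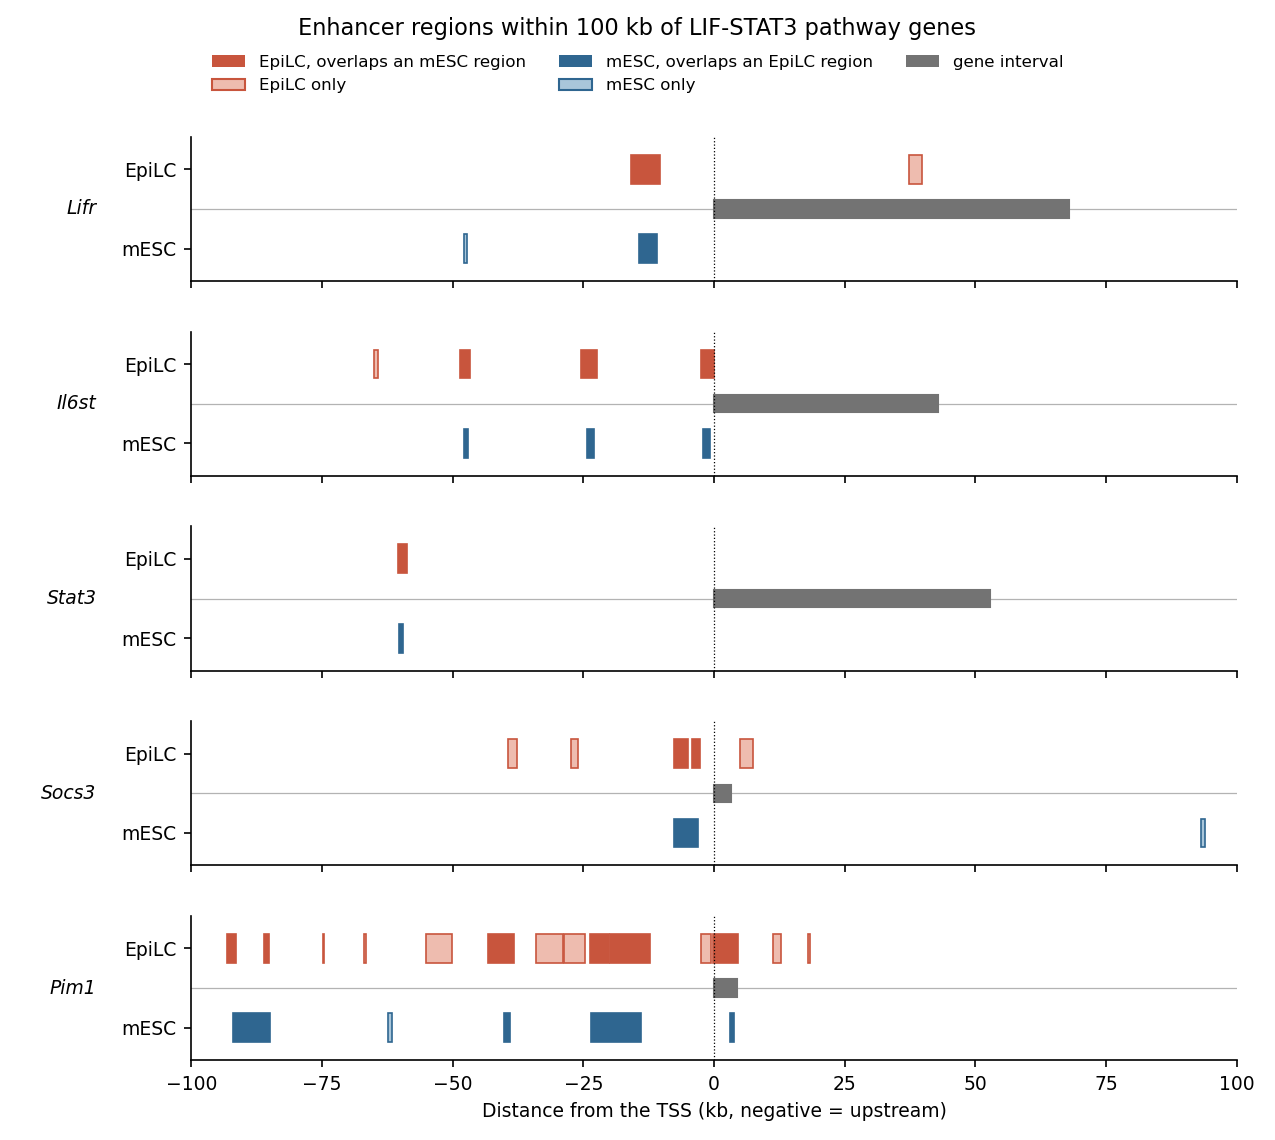
Each panel shows 1 gene, with distance from its TSS in kb on the x axis (negative is upstream), EpiLC regions above the line, mESC regions below it and the gene interval in grey. Dark boxes overlap a region of the other list and pale boxes do not. Centres of 21 of 26 EpiLC and 11 of 13 mESC regions lie upstream of the TSS, 11 and 4 of them at Pim1. The upstream share over all gene intervals was not computed.

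The receptor genes Lifr and Il6st were each flanked by regions present in both lists. Lifr encodes the LIF-binding chain. Its interval (chromosome 15, 7129572 to 7197489, plus strand) starts 38958 bp downstream of the 5' end that GENCODE gives for the gene, and no other TSS of the gene list lay within 100 kb. The upstream region in both lists spanned 5550 bp in the EpiLC list (7113702 to 7119251) and 3541 bp in the mESC list (7115154 to 7118694), with the mESC region wholly inside the EpiLC one. It was centred 13.1 kb (EpiLC) and 12.6 kb (mESC) upstream of the TSS, in an intron of Lifr as GENCODE annotates it. In the EpiLC list 7.14% of regions were at least as long, and in the mESC list 11.2%. Each list held 1 further region of its own. The EpiLC region (7166827 to 7169351, 2525 bp) lay in an intron 38.5 kb downstream of the TSS, and the mESC region (7081757 to 7082395, 639 bp) was intergenic, 47.5 kb upstream.

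The shared Lifr region held the 1 TTCCNGGAA match near the receptor genes, with a match to the looser TTCNNNGAA nearby, and the Lifr EpiLC-only region held TCAAGGTCA, the type of site bound by ESRRB. Both stretches are shown with those matches in capitals, read from GRCm38.p6.
Lifr shared region, chr15:7115422-7115621, plus strand: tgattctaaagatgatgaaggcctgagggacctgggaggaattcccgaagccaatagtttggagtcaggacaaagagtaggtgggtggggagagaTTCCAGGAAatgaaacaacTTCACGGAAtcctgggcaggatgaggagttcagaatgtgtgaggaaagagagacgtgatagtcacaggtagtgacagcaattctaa
Lifr EpiLC-only region, chr15:7167979-7168178, plus strand: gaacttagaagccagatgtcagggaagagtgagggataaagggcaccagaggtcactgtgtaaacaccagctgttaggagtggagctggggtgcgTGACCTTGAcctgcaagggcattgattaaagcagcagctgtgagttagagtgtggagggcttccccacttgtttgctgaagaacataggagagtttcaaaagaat
The TTCCAGGAA match started at position 7115517 and the second match, TTCACGGAA, at 7115536. The shared region also held 2 octamers (ATGCAAAT, bound by POU factors such as OCT4) at 7115862 and 7115900. The second stretch reads TGACCTTGA because the match is on the other strand.

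Il6st encodes gp130, the signalling chain shared by the IL-6 family of cytokines. Its interval (chromosome 13, 112464070 to 112506860, plus strand) likewise had no other TSS of the gene list within 100 kb. Every region near it was upstream. All 3 mESC enhancers lay wholly inside EpiLC enhancers. The pair nearest the gene had a length of 2350 bp in the EpiLC list (112461652 to 112464001) and 1323 bp in the mESC list (112462051 to 112463373), with centres 1.24 kb and 1.36 kb from the TSS. An mESC enhancer as near as that was found at 1.59% of gene intervals, and an EpiLC enhancer as near at 14.1%. The next pair measured 2900 bp in the EpiLC list (112438702 to 112441601) and 1281 bp in the mESC list (112439859 to 112441139), with centres 23.9 kb and 23.6 kb upstream. The third pair measured 1800 bp (112415552 to 112417351) and 724 bp (112416296 to 112417019) and was centred within 1 kb of a TSS of the gene 2810403G07Rik, at 47.6 kb and 47.4 kb from Il6st. The fourth EpiLC enhancer (112398977 to 112399726, 750 bp), 64.7 kb upstream, had no mESC counterpart. At least 3 mESC enhancers that overlap an EpiLC enhancer were found at 2.08% of gene intervals.

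No region near Il6st held TTCCNGGAA. The proximal shared region held 2 octamers, and the EpiLC version of it ended inside the promoter that RefSeq gives for Il6st, covering 182 of its 300 bases. The stretch around the octamer at 112462568 and the promoter (RefSeq, GRCm38.p6) are shown. Capitals mark the octamer in the stretch, which reads ATTTGCAT because the match is on the other strand, and the bases inside the EpiLC enhancer in the promoter.
Il6st proximal shared region, chr13:112462472-112462671, plus strand: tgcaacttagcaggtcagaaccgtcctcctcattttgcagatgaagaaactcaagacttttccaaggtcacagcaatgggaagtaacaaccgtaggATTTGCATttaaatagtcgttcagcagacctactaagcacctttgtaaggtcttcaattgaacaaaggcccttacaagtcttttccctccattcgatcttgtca
Il6st promoter, chr13:112463820-112464119, plus strand: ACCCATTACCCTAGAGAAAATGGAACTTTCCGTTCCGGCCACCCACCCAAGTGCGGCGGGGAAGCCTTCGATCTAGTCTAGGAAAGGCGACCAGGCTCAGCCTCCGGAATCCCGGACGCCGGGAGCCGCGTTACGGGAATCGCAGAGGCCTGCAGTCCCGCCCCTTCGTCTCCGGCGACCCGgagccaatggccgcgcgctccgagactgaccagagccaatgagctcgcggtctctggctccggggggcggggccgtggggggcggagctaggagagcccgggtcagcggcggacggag

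Stat3, the transcription factor of the pathway, had the fewest regions within 100 kb, but not within 200 kb, where it had 6 EpiLC and 1 mESC enhancers and Lifr had 3 of each. Its interval (chromosome 11, 100886806 to 100939540, minus strand) lies among 5 other TSSs of the gene list within 100 kb. They belong to Stat5b, Stat5a, Cavin1, Atp6v0a1 and Mir6928. The only regions within 100 kb formed 1 shared pair, of 1825 bp in the EpiLC list (100998252 to 101000076) and 830 bp in the mESC list (100999034 to 100999863). Their centres lay 59.6 kb and 59.9 kb upstream of the Stat3 TSS and 10.3 kb and 10.0 kb from that of Atp6v0a1, a proton pump subunit. When only regions whose nearest TSS was the gene itself were counted, Stat3 had 0 in both lists. An EpiLC enhancer as near as 59.6 kb was found at 61.5% of gene intervals, and an mESC enhancer as near as 59.9 kb at 40.4%. The pair held no match to TTCCNGGAA, TTCNNNGAA, ATGCAAAT or TCAAGGTCA.

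Socs3, the feedback inhibitor, was flanked on its upstream side by 1 long mESC enhancer that overlapped 2 EpiLC enhancers. Its interval (chromosome 11, 117966087 to 117969366, minus strand) is 3.28 kb long. The mESC enhancer spanned 4552 bp (117972388 to 117976939), with its centre 5.3 kb upstream of the TSS, and belonged to a block at the head of the mESC list that stands before the rest in an order of its own. These EpiLC enhancers measured 2575 bp (117974427 to 117977001) at 6.35 kb and 1425 bp (117972102 to 117973526) at 3.45 kb. Together they covered 80.2% of it. The other 3 EpiLC enhancers overlapped no mESC region. One of 2625 bp (117961852 to 117964476) lay 6.2 kb downstream of the TSS and beyond the end of the gene. The others, of 1300 bp and 1700 bp, lay 26.7 kb and 38.6 kb upstream in introns of Pgs1, which encodes an enzyme of cardiolipin synthesis. The second mESC enhancer, 720 bp long and 93.5 kb downstream, was 2.31 kb from the TSS of Tha1 and overlapped no EpiLC region. Without that block Socs3 kept 1 mESC enhancer and had 0 overlaps.

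TTCCNGGAA occurred at 2 positions near Socs3, both in EpiLC-only regions, and TTCNNNGAA at 8 positions in all. The promoter of Socs3 itself lay in no enhancer of either list and held 1 TTCNNNGAA match, TTCTTAGAA. The stretches printed here are the downstream EpiLC-only region with its TTCCAGGAA match, the TCAAGGTCA match in the part that both lists contain, and the promoter (RefSeq, GRCm38.p6), with the matches in capitals. In the EpiLC enhancer with that TCAAGGTCA match, 35.4% of the central 500 bp is marked as repeat in the reference.
Socs3 downstream EpiLC-only region, chr11:117962528-117962727, plus strand: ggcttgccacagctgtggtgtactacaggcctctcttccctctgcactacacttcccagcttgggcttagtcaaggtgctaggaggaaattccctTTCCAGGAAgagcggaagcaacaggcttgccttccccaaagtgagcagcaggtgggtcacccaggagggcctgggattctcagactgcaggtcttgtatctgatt
Socs3 upstream shared region, chr11:117972807-117973006, plus strand: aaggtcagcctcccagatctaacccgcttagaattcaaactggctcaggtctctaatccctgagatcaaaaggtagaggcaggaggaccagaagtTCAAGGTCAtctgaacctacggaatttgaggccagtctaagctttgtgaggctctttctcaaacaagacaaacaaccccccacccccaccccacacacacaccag
Socs3 promoter, chr11:117969317-117969616, minus strand: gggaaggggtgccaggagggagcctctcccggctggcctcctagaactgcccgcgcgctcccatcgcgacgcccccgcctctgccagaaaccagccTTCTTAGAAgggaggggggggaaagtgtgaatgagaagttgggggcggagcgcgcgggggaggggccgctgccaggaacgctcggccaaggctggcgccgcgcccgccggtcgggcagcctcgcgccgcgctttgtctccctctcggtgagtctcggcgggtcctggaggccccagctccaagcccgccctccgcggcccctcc
The promoters of the other 4 genes, 6 RefSeq promoters in all, held neither STAT-type pattern, ATGCAAAT, TCAAGGTCA, GGGTGTGGC (a KLF-type site) nor GGATTA (the core of an OTX-type site). Among all 32851 RefSeq promoters 8.3% held TTCNNNGAA and 1.15% held TTCCNGGAA, while 1.74% held ATGCAAAT, 0.423% TCAAGGTCA, 1.35% GGGTGTGGC and 7.06% GGATTA, so a lack of matches was the usual case.

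Pim1, a STAT3 target encoding a serine/threonine kinase, had a dense run of EpiLC enhancers upstream and a separate EpiLC enhancer over the gene. Its interval (chromosome 17, 29491045 to 29495459, plus strand) is 4.42 kb long. In the EpiLC list, 6 enhancers filled 70.9% of a 42.8 kb stretch upstream (29435902 to 29478726), with gaps of 175 to 7050 bp. Their lengths, in order toward the gene, were 4950, 4900, 5175, 4026, 3796 and 7525 bp. After a wider gap, another EpiLC enhancer of 1842 bp (29488577 to 29490418) ended shortly before the TSS. One of 4907 bp (29490770 to 29495676) covered the TSS and the whole gene. A TSS inside an EpiLC enhancer was found at 14.1% of gene intervals, and a TSS inside an mESC enhancer at 1.17%. Pim1 alone of the 5 genes had its TSS in an EpiLC enhancer, and none had it in an mESC enhancer. Of the 14 EpiLC enhancers, 7 were longer than 2900 bp, the upper quartile of the EpiLC list.

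The mESC regions near Pim1 were fewer but included the longest of the 13. One of 9567 bp (29467437 to 29477003), 18.8 kb upstream, was 98.2% covered by 2 EpiLC enhancers. One of 6918 bp (29399105 to 29406022), 88.5 kb upstream, was 19.5% covered by 2 EpiLC enhancers, at or near its ends. One of 1166 bp (29450832 to 29451997) belonged to the block at the head of the mESC list and lay wholly inside an EpiLC enhancer, 39.6 kb upstream. One of 698 bp (29494080 to 29494777) lay in an intron of Pim1, 3.38 kb downstream of the TSS and inside the EpiLC enhancer that covers the gene. The last, of 676 bp, was 61.9 kb upstream and overlapped no EpiLC region. In all, 6 of 14 EpiLC and 4 of 5 mESC enhancers near Pim1 overlapped the other list, against 25.9% and 42.9% of the whole lists. The remaining 8 and 1 had no counterpart.

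Several regions upstream of Pim1 lay in or at the starts of Gm26885 and AC163629.2, genes that GENCODE annotates there. They held 7 of the EpiLC centres, 4 of them within 1 kb of an annotated TSS. TTCCNGGAA occurred once near Pim1, in the part of the 6918 bp mESC region that no EpiLC enhancer covered. The TSS nearest to the centre of that region was that of Fgd2, at 41.6 kb. The EpiLC enhancers centred 66.8 to 92.3 kb upstream of Pim1 were also nearer to Fgd2. Counting only regions whose nearest TSS was that of Pim1 left 10 EpiLC and 4 mESC enhancers. The EpiLC-only enhancer at 52.7 kb upstream held 6 TCAAGGTCA matches, from 29439527 to 29439822, with starts 49, 29, 29, 29 and 151 bp apart. This array was noticed after the values were seen. The stretch printed holds 5 of the 6, and 87.5% of it is marked as repeat in the reference. Both stretches are shown with the matches in capitals, followed by both Pim1 promoters of RefSeq (GRCm38.p6), where capitals mark the bases inside the EpiLC enhancer over the gene: 65 of 300 in one and all 300 in the other.
Pim1 distal mESC region, chr17:29400221-29400420, plus strand: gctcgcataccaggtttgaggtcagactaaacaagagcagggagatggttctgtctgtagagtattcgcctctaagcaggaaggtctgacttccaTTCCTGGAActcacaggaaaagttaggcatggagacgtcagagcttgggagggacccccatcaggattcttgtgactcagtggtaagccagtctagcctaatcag
Pim1 EpiLC-only region, chr17:29439507-29439706, plus strand: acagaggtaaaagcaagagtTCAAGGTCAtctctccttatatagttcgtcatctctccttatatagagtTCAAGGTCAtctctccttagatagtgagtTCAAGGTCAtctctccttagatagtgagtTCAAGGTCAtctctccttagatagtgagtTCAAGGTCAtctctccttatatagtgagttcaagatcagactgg
Pim1 promoter, upstream start, chr17:29490535-29490834, plus strand: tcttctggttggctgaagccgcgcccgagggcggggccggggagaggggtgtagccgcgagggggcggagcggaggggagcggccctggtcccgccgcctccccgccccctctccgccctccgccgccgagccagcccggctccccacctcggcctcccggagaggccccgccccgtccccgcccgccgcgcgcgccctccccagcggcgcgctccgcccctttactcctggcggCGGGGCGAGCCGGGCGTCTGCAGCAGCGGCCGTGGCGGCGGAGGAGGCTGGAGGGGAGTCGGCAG
Pim1 promoter, downstream start, chr17:29492835-29493134, plus strand: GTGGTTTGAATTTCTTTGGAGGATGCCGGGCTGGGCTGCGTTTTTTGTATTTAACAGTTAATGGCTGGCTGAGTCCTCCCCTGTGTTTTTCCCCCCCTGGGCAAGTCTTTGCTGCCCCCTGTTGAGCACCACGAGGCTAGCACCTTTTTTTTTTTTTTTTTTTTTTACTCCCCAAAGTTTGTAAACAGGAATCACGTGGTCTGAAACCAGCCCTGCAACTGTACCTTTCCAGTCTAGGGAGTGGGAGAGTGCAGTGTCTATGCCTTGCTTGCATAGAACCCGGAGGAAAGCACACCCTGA

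Measured in DNA rather than in regions, Pim1 again stood far above the other genes. EpiLC enhancers covered 42.2 kb and mESC enhancers 19.0 kb of the 100 kb on either side of its TSS. As much was covered at 0.669% and 1.11% of gene intervals. The next highest was Socs3, with 9.62 kb and 5.27 kb, followed by Lifr with 8.07 kb and 4.18 kb and Il6st with 7.8 kb and 3.33 kb. Stat3 had 1.82 kb and 0.83 kb. Over all gene intervals the medians were 3 kb for the EpiLC and 0.528 kb for the mESC list. The part of the mESC-covered DNA that EpiLC enhancers also covered was 66.2% at Pim1, 69.3% at Socs3, 84.7% at Lifr, and 100% at Il6st and Stat3. Seen from the other side, between 29.9% (Pim1) and 45.5% (Stat3) of the EpiLC-covered DNA was also mESC-covered. The same shares over all gene intervals were not computed, so neither range is a trait of these genes. The EpiLC list covered more DNA in general, at a mean of 6.03 kb against 1.69 kb for the mESC list over all gene intervals.

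**Figure D3:**
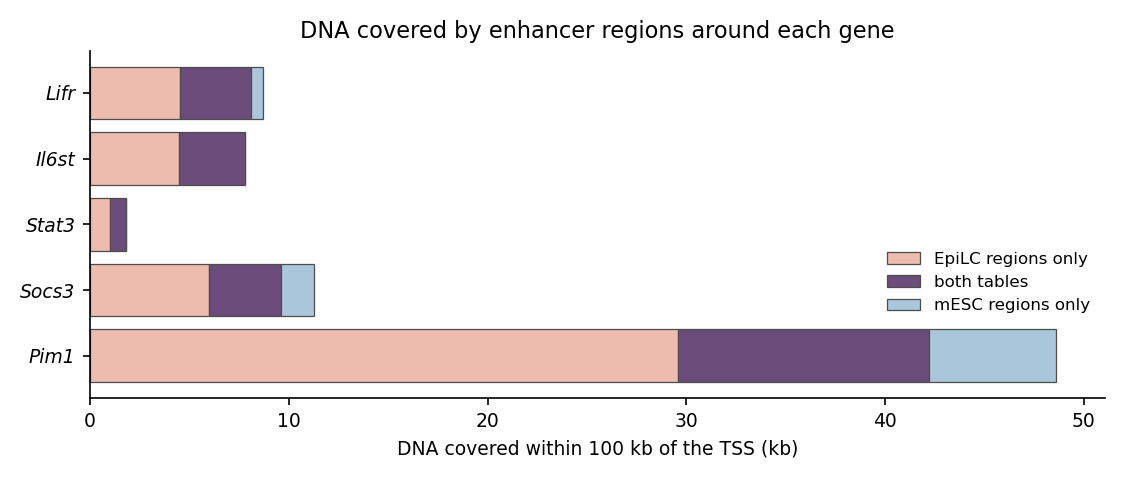
Stacked bars give the kb of DNA within 100 kb of each TSS that was covered by EpiLC regions only, by both lists and by mESC regions only. Pim1 had 29.6 kb, 12.6 kb and 6.42 kb in these classes, and Il6st and Stat3 had none covered by mESC regions only.

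Shared regions were longer than unshared ones at the median in both lists. Near the 5 genes the median length was 2575 bp for shared and 1700 bp for unshared EpiLC enhancers, against 2282 and 1625 bp in the whole list. It was 1302 bp for shared and 676 bp for unshared mESC enhancers, against 839 and 640 bp in the whole list. With every region set to 500 bp around its centre, the shares near the 5 genes were closer to those of the whole lists. Long regions with distant centres then counted as unshared, among them the 9567 bp mESC enhancer near Pim1. Of the 13 mESC enhancers, 7 were longer than 919 bp, the upper quartile of their list, and all 7 were shared. Of the 26 EpiLC enhancers, 8 were longer than 2900 bp, and those of 5175, 4950 and 4026 bp at Pim1 were unshared. How many of the long regions in the whole lists were shared was not computed.

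**Figure D4:**
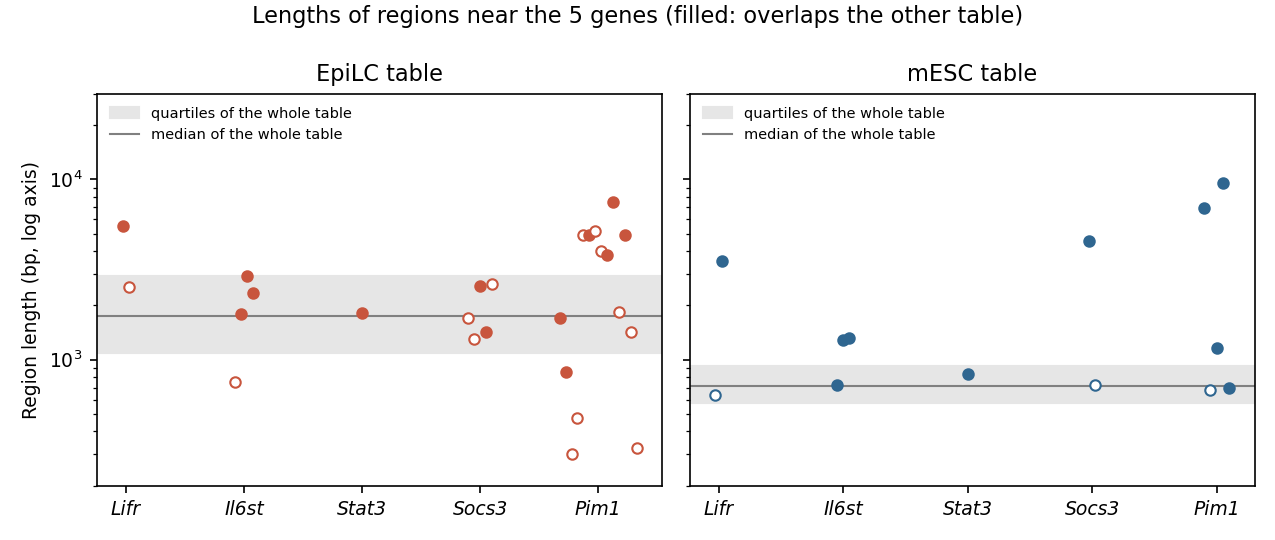
Points are single regions near each gene, with length in bp on a log axis, filled where the region overlaps the other list and open where it does not. The grey band and line give the quartiles and median of the whole list (1084, 1750 and 2900 bp for EpiLC, 572, 711 and 919 bp for mESC); all 3 open mESC points lie inside the band.

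Matches to the STAT palindrome were few, and each is a match of letters, not a measured binding site. In the central 500 bp, 0 of 26 EpiLC and 0 of 13 mESC enhancers held TTCCNGGAA, against 1.63% and 1.99% of the whole lists. The looser TTCNNNGAA, which includes the first pattern, was in 4 of 26 EpiLC (15.4%) and 2 of 13 mESC enhancers (15.4%), against 13.4% and 17.1%. Over their whole length, 3 EpiLC enhancers (11.5%) and 2 mESC enhancers (15.4%) held TTCCNGGAA, against 7.33% and 5.55% of lists whose regions are shorter at the median. Joined into 78.2 kb of DNA, the regions held 4 such matches, or 5.11 per 100 kb, against 3.36 per 100 kb over all joined regions. Both strands were searched for each pattern, and these palindromes read the same on both. Of 7 octamers in the 78.2 kb, 5 lay in the 24.0 kb that both lists cover, at Lifr, Il6st and Socs3, while the other 2 lay in EpiLC-only DNA at Pim1. Octamers occurred at 8.95 per 100 kb, against 8.71 over all regions.

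The remaining patterns were counted in the same way. TTCNNNGAA anywhere was in 15 of 26 EpiLC (57.7%) and 5 of 13 mESC enhancers (38.5%), against 44.8% and 31.6% of the whole lists. In the central 500 bp, ATGCAAAT was in 0 of 26 EpiLC and 1 of 13 mESC enhancers, against 5.27% and 10.5%. TCAAGGTCA was in 2 of 26 and 0 of 13, against 1.91% and 3.66%, and GGGTGTGGC in 0 of 26 and 0 of 13, against 1.53% and 2.14%. GGATTA was in 14 of 26 EpiLC enhancers (53.8%) and 1 of 13 mESC enhancers (7.69%), against 19.1% and 20.5%. Pim1 held 9 of these 14 EpiLC enhancers, and the other genes 5 of their 12.

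The outermost regions inside the limit of 100 kb were the mESC enhancer near Socs3 at 93.5 kb and the EpiLC enhancer near Pim1 at 92.3 kb. The nearest regions outside were EpiLC enhancers at 105 kb from Pim1 and 109.8 kb from Il6st, and for the mESC list the one at 148.4 kb from Il6st. At 50 kb, 19 EpiLC and 9 mESC enhancers remained in the count, and at 200 kb there were 44 and 16.

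By the kb covered in EpiLC regions only, in mESC regions only and in both, over these 2 lists, the gene interval most like Lifr was Gm10389, at a Euclidean distance of 0.242 kb. For Il6st the nearest were Htr1d and Luzp1 (0.407 kb each, with the same covered kb), for Stat3 Gm10248 and Olig3 (0.00566 and 0.0405 kb), and for Socs3 Galnt9 and 4931428F04Rik (0.369 and 0.679 kb). For Pim1, with the most covered DNA, the nearest were Rsg1 and Gm12925 (2.79 and 3.07 kb). These distances were not scaled to the covered DNA, and the number of regions did not enter them. Htr1d and Luzp1, both on chromosome 4, each had 2 EpiLC and 1 mESC enhancers, against 4 and 3 at Il6st. Gm12925 had 4 and 3, against 14 and 5 at Pim1, while Gm10248 and Olig3 had 1 of each, as Stat3 had. Rsg1 had 27.5 kb in EpiLC regions only, 5.72 kb in mESC regions only and 11 kb in both. Pim1 had 29.6, 6.42 and 12.6 kb.

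Among 35 further genes of LIF and IL-6 family signalling, regions of the EpiLC list were found near all 35, against 74.2% of all gene intervals, and regions of the mESC list near 19 (54.3%), a share close to the 55.4% of all gene intervals. Counting only regions whose nearest TSS was the gene itself gave 24 of 35 for the EpiLC and 14 of 35 for the mESC list, against 34.3% and 21.9% of all gene intervals. Of 9 targets and effectors 8 had at least 1 mESC enhancer within 100 kb. Tfcp2l1, Pim3 and Myc had 3 mESC enhancers each, and Fos alone had none, with 2 EpiLC enhancers near it. Tfcp2l1 and Klf4, naive pluripotency factors, had 1 and 2 EpiLC enhancers. Of 7 ligands 5 had an mESC enhancer. Lif and Osm, neighbours whose windows overlap so that regions count for both, each had 7 EpiLC and 2 mESC enhancers. Ctf1, encoding cardiotrophin, had 8 EpiLC and 1 mESC enhancers. Of 4 receptors Il6ra (2 EpiLC, 2 mESC) and Osmr (1 and 1) had both kinds, and Il11ra1 and Cntfr had EpiLC enhancers only. The windows of Il11ra1 and Cntfr also overlap.

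Of 6 kinases and adaptors, Jak2 had 1 EpiLC and 4 mESC enhancers, while Jak1 (1 EpiLC), Tyk2 (6), Ptpn11 (1), Grb2 (5) and Gab1 (2) had no mESC enhancer. Stat5a (1 EpiLC) and Stat5b (1), neighbours whose windows overlap so that a region can count for both, had none either. Among 7 inhibitors, Socs2 had 5 EpiLC and 2 mESC enhancers, Pias3 had 6 and 1 and Ptpn2 had 4 and 1. Socs1, Cish, Pias1 and Ptpn1 had 2 to 6 EpiLC enhancers and 0 in the mESC list. EpiLC enhancers without any mESC enhancer were thus found at 16 of the 35 genes, against 26.1% of all gene intervals. Since all 35 had an EpiLC enhancer, the other 19 had both kinds, against 48% of all gene intervals. Of the 17943 gene intervals with an EpiLC enhancer, 6327 had no mESC enhancer.

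**Figure D5:**
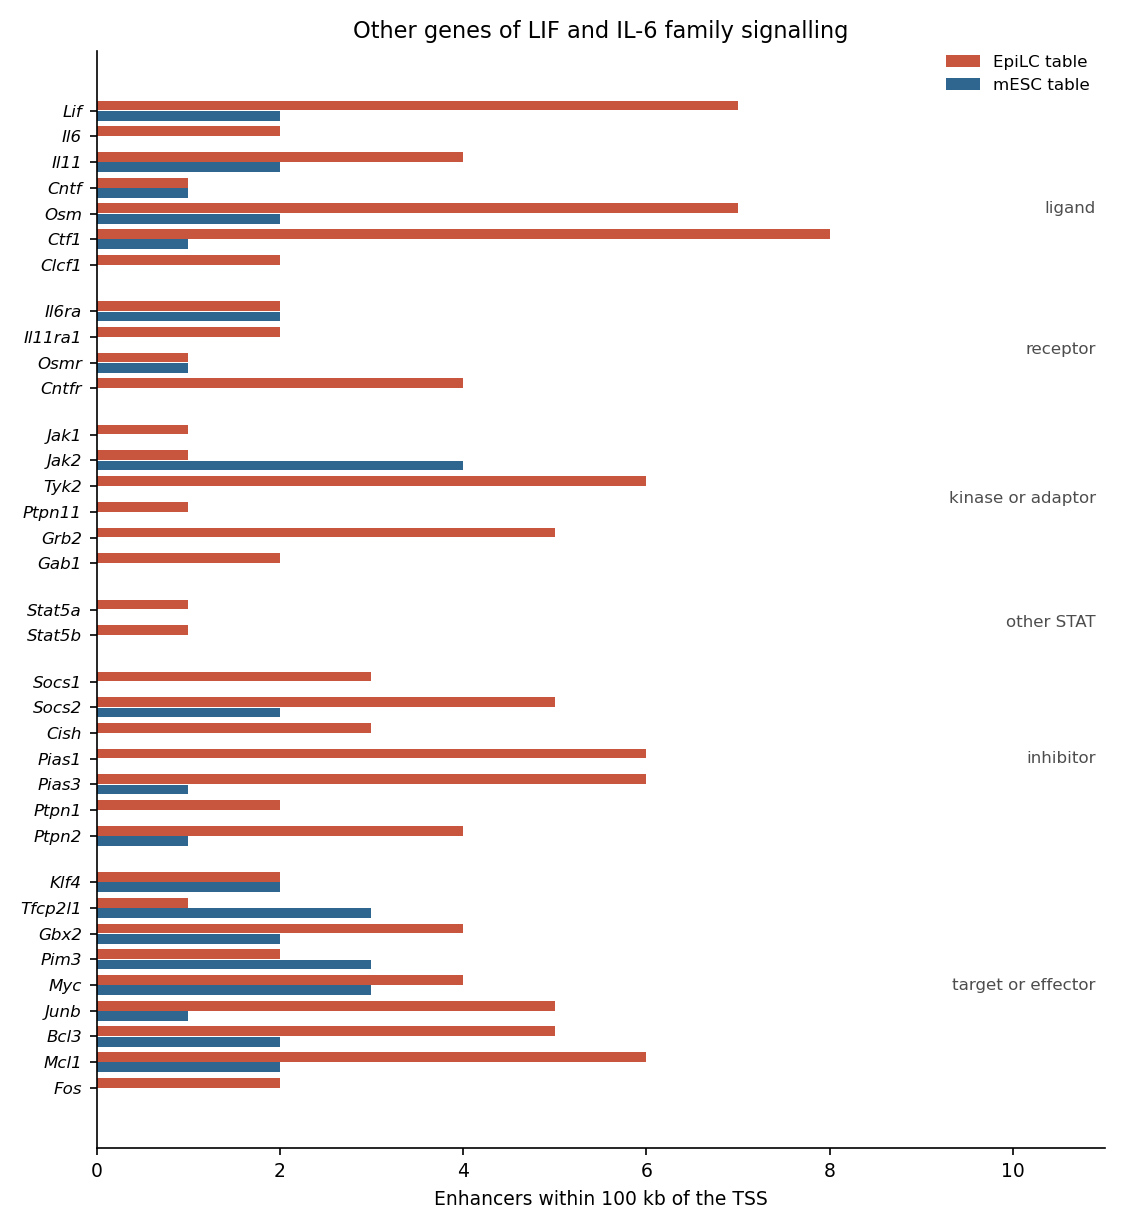
Paired bars give the number of EpiLC (upper, red) and mESC (lower, blue) enhancers within 100 kb of the TSS of 35 further pathway genes, grouped by role. Jak2, Tfcp2l1 and Pim3 are the genes with more mESC than EpiLC enhancers.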

How the data were processed

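The deposited files are 3 lists of mm10 positions. Per the series' design text, the authors lifted the EpiLC enhancers (H3K27ac, H3K4me1 and p300 peaks) and mESC enhancers of earlier publications over to mm10 and took the non-redundant UCSC gene intervals from earlier work. Which liftover tool they ran is not given in the sources used here. With positions alone, no test was possible.

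Gene starts count from 0, since start plus 1 matched RefSeq in 12038 rows and the start itself in 329. Enhancer starts were read the same way, which could be wrong by 1 bp. Names came from RefSeq or GENCODE M21 by exact match, or by a shared over joint length of at least 0.8 on the same strand (23790 of 24402 rows). Duplicates (120 rows), rows beyond a chromosome or on scaffolds (19) and intervals longer than the longest RefSeq gene (65) were left out. Distances run from region centre to TSS. Annotation at a centre is that of GENCODE M21. Sequence is GRCm38.p6. The overlap and pattern searches (Python 3.11.15) were tested on simulated intervals.

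The members, the list of 35 further pathway genes and the rules were chosen with earlier results of these data known. Named were the 5 members, every region near them, the 35 genes and the 2 gene intervals most like each member, in text or figure; 1 like interval, and 1 pathway gene beyond these 35, are not reported here. Sequences showing ATGCAAAT or TCAAGGTCA and the Socs3 promoter were chosen after their values were seen.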

Additional observations from a re-analysis of the deposited data

How the results depend on the processing

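The total of 26 EpiLC and 13 mESC enhancers, with 13 and 10 of them shared, stayed within 1.5 times under most alternatives. Exceptions were 44 EpiLC enhancers at 200 kb, and shared counts of 4 EpiLC and 4 mESC where 50% of both regions had to overlap (4.97% and 9.36% of the whole lists) and of 5 and 5 for equal widths of 500 bp (14.1% and 26.1%). At 200 kb Stat3 had 6 EpiLC enhancers, more than Lifr or Il6st. Leaving out Pim1, an alternative chosen after seeing the data, left 12 EpiLC and 8 mESC enhancers, 7 and 6 of them shared. The number of regions with a STAT-type pattern, 0 in the main setting, was 6 with TTCNNNGAA and 5 over whole regions, and stayed 0 in the central 200 and 1000 bp. The counts of 35 and 19 further pathway genes kept within 1.5 times in every alternative, with ranges of 24 to 35 (EpiLC) and 14 to 27 (mESC). Of the comparisons for single genes 29 moved by more and 177 did not. A stricter peak threshold was not run, since the lists hold no score. Signal and depth were not analysed here. No paired analysis was possible because the lists have no samples or replicates.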

Other observations

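GGATTA, the core of sites bound by OTX2, a factor of the epiblast, had 54 matches in the joined regions near the 5 genes, 38 of them at Pim1, or 69.1 per 100 kb, against 46.7 per 100 kb over all regions. GGGTGTGGC had 0 matches, against 2.72 per 100 kb. No test was made.

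TCAAGGTCA was found 10 times in the joined regions (12.8 per 100 kb, against 3.96 over all regions). Outside the EpiLC-only enhancer with the 29 bp array upstream of Pim1 there were 4, or 5.46 per 100 kb.

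Median GC content of the central 500 bp was 49.7% in EpiLC and 45.8% in mESC enhancers, against 48.8% and 45.2% in the whole lists. The median share of bases marked as repeats was 22.6% and 10%, against 14.8% and 15.2%, and reached 61.2% in the EpiLC enhancer upstream of Stat3.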
